A study of Homo sapiens with 48 samples.

Results

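The 33 transcripts described here belong to the ATF4 and CHOP stress response and were read in H1975, an EGFR-mutated line derived from a human non-small cell lung cancer. They are the rows of the count table whose symbol is on a list of 33 response genes, out of 27978 symbols in the table, and amino acid transporters and tRNA synthetases were left out of that list. All 33 passed the filter on low counts that left 15789 genes for testing. The study sequenced 48 libraries, 3 in each of 16 groups, and its title asks whether Compound kushen injection (CKI) and YFSJ reduce resistance to gefitinib. Gefitinib inhibits the EGFR kinase, CKI is an injectable extract of plants used in Chinese medicine, and YFSJ is known here by its letters alone. One group was untreated and taken at 0 h, and 15 groups were taken at 24 h. Those 15 comprised untreated cells, the 2 gefitinib doses of 50 and 75 µM, the 2 CKI doses of 1 and 2 mg/mL, the 2 YFSJ doses of 2.5 and 5 mg/mL, and 8 combinations in which CKI or YFSJ, at either dose, was paired with gefitinib at either dose. All cells come from 1 line, and the series describes the 3 libraries of a group as biological replicates without saying how the cultures were kept apart, so p-values measure the spread between these libraries.

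When a cell meets amino acid shortage, misfolded protein in the endoplasmic reticulum, mitochondrial damage or other stress, kinases phosphorylate the initiation factor eIF2, which lowers general protein synthesis and raises translation of ATF4 mRNA. The ATF4 protein switches on genes for amino acid synthesis, transport and redox balance, and it induces CHOP, the factor encoded by DDIT3. ATF4, CHOP and related factors also induce feedback regulators, such as the eIF2 phosphatase subunit PPP1R15A and the pseudokinase TRIB3, and prolonged signalling is known to lead to cell death.

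Library totals ran from 16428398 to 26264162 counts, so that 3 counts, taken as the detection floor, corresponded to between 0.183 and 0.114 CPM. CPM, the count relative to the library total, was scaled here by TMM factors and is not corrected for transcript length, so levels are compared within a gene only. Because the catalogue number in the labels is that of the breast line MCF-7, markers were checked: 5 of 6 lung markers had a median of at least 1 CPM, against 1 of 6 luminal breast markers and 0 of 5 blood markers. Among 5 fibroblast markers 3 reached that level. The lung markers were uneven, with medians of 44.7 CPM for NKX2-1, 1.93 for NAPSA and 0.0431 for SFTPB. KRT7, EGFR and CDKN2A had medians of 1445, 96.5 and 69.6 CPM. A set of 10 libraries, all 3 of YFSJ 2.5 mg/mL, all 3 of CKI 2 mg/mL with gefitinib 75 µM, 2 of 3 of CKI 2 mg/mL with gefitinib 50 µM and 2 of 3 of CKI 1 mg/mL with gefitinib 75 µM, held 2581 to 3557 counts of the liver transcript ALB, against 0 to 8 elsewhere. In that set 14 of 16 liver markers exceeded their level in each of the remaining libraries, where none of the 14 was above 0.711 CPM. The summed level of all 16 was 267 to 366 CPM against 49.0 to 103. That sum includes SERPINA1 and VTN, which were present in every library at no less than 43.7 and 3.14 CPM. Libraries 1 and 2 at 0 h and library 2 of YFSJ 2.5 mg/mL with gefitinib 75 µM also stood apart from their groups. The share of counts on mitochondrial ribosomal RNR2 differed between treatments and also between libraries of a group. It was 0.464 to 0.582% for the untreated group at 24 h and 1.39 to 1.56% with CKI 2 mg/mL and gefitinib 75 µM. In untreated libraries 1, 2 and 3 at 0 h it was 1.22, 1.69 and 0.457%. Library 2 of YFSJ 2.5 mg/mL with gefitinib 75 µM stood at 2.18%, against 0.811 and 0.957% in libraries 1 and 3. In bulk libraries a change in a few cells and a smaller change in every cell cannot be told apart.

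Promoter sequence is shown for the members whose window held one of 2 motifs tied to this response, as a reference for genes described below. These members did not move as a group when CKI 2 mg/mL was added to gefitinib 75 µM: ATF3, ASNS and PPP1R15A rose, JDP2 and CEBPG fell (-0.53 ± 0.11 and -0.23 ± 0.09, the CEBPG call lost in 8 of 14 alternatives) and CHAC1 had no call. RefSeq windows (GRCh38.p14, reading toward the gene) were found for 24 of the 33 members. The 250 bases before the start site were searched on both strands for TGATGNAA, a core of the composite site bound by ATF4 with C/EBP partners, and for TGACGTCA, the palindromic cAMP response element. The 24 members had 36 windows, as some genes have several start sites. The first motif lay in 5 of these 36 windows, in 5 members, and in 3.14% of 35116 windows of the same length. The second lay in 1 of the 36 windows, in 1 member, and in 1.65% of all windows. Matches, in capitals, are descriptions of letters and not evidence of binding. The stretches are chr1:212565176-212565263 on the plus strand for ATF3, chr7:97872429-97872516 on the minus strand for ASNS, chr14:75427966-75428021 (plus) for JDP2, chr15:40953222-40953309 (plus) for CHAC1, chr19:33374031-33374112 (plus) for CEBPG and chr19:48872323-48872410 (plus) for PPP1R15A.
ATF3: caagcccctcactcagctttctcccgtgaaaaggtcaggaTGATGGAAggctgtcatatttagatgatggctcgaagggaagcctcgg
ASNS: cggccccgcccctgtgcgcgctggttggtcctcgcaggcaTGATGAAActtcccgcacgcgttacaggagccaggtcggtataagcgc
JDP2: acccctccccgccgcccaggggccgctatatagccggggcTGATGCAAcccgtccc
CHAC1: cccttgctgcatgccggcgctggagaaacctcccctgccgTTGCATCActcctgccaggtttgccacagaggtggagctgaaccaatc
CEBPG: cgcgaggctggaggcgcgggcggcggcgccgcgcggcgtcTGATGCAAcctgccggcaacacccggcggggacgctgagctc
PPP1R15A: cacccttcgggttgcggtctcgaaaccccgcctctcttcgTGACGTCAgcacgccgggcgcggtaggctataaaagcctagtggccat
In CHAC1 the motif lies on the opposite strand. The match began 68 bases before the ASNS start, 191 before ATF3, 16 before JDP2, 209 before CHAC1, 42 before CEBPG and 58 before PPP1R15A.

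Gefitinib alone raised nearly the whole list. At 75 µM 30 of 33 members were higher than in untreated cells at 24 h and 1 was lower, where 27.6% of all tested genes were called higher and 27.1% lower (edgeR quasi-likelihood test, Benjamini-Hochberg adjusted p under 0.05, named a call below). The median log2 fold change was 1.49 over the members and 0.02 over all genes tested. At 50 µM 29 members rose and 1 fell, against 27.6% and 26.8% of all genes, with a median of 1.45. With library totals in place of TMM scaling, 61.1% rather than 50.8% of the genes called at 50 µM were higher. Comparisons with untreated cells at 24 h share those 3 libraries.

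The factors came first in the list. DDIT3 stood at 21.5, 22.3 and 20.4 CPM in untreated cells at 24 h and at 112, 112 and 102 CPM with gefitinib 75 µM. The groups were far apart, and the log2 fold change was 2.34 ± 0.21 (SE, n = 3 in each group, edgeR adjusted p = 7.56e-12). ATF4 itself rose from 279, 288 and 307 to 688, 686 and 686 CPM, a log2 change of 1.24 ± 0.17, with no overlap between the groups. ATF3, a stress-induced repressor of the same family, went from 7.99, 7.73 and 7.27 to 28.7, 29.5 and 30.8 CPM, or 1.95 ± 0.16. NUPR1, a small stress-induced chromatin protein, showed one of the widest gaps, 18.4, 22.1 and 20.4 CPM against 258, 231 and 237, a log2 change of 3.58 ± 0.17. JDP2, which pairs with Jun proteins (2.34 ± 0.12), the TRIB3 pseudokinase (2.23 ± 0.10), CEBPG, a C/EBP partner of ATF4 (1.36 ± 0.09), and CEBPB (0.58 ± 0.12) also rose. ATF5 was the exception among these 9 genes, at 0.17 ± 0.08 with adjusted p = 0.0828.

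All 7 genes of feedback and growth restraint rose at 75 µM. CHAC1, which breaks down glutathione, went from 3.14, 3.42 and 3.74 CPM to 31.7, 30.7 and 39.4, a log2 change of 3.31 ± 0.15. SESN2, which restrains mTORC1 when leucine is short, went from 13.4, 12.6 and 16.6 to 76.5, 64.3 and 78.9 CPM (2.36 ± 0.10). Both groups were separated in each gene by several times the spread of the libraries. DDIT4, another mTORC1 inhibitor (1.49 ± 0.10), KLHL24, a ubiquitin ligase adaptor (1.68 ± 0.11), PPP1R15A (1.37 ± 0.14), GADD45A, a growth arrest protein (0.95 ± 0.21), and EIF4EBP1, which holds back cap-dependent translation (0.30 ± 0.11), followed. EIF4EBP1 had no call at 50 µM, where it stood at 0.18 ± 0.11.

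All 6 serine and one-carbon enzymes rose as well, by unequal amounts. PHGDH, which takes the first committed step of serine synthesis, went from 48.2, 49.6 and 58.3 CPM to 234, 212 and 231, a log2 change of 2.12 ± 0.11. ALDH1L2, the mitochondrial formyltetrahydrofolate dehydrogenase, changed by 2.26 ± 0.14. PSAT1, the next step of serine synthesis, went from 128, 129 and 125 to 239, 239 and 234 CPM (0.90 ± 0.08). SHMT2 (0.60 ± 0.08) and MTHFD2 (0.45 ± 0.09), which carry serine carbon into mitochondrial folate, and PSPH (0.53 ± 0.08), the last step to serine, changed less. Of the other enzymes 5 of 6 rose, among them the mitochondrial phosphoenolpyruvate carboxykinase PCK2 (2.45 ± 0.12), CTH of cysteine synthesis (1.55 ± 0.13), GPT2 of alanine metabolism (1.24 ± 0.10) and PYCR1 of proline synthesis (1.06 ± 0.13). ALDH18A1, the enzyme before PYCR1 in proline synthesis, went the other way, from 129, 120 and 126 to 111, 111 and 108 CPM. Its log2 change was -0.18 ± 0.08 with adjusted p = 0.0409, and the call was lost in 8 of 13 alternative analyses.

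ASNS, which makes asparagine and is a standard ATF4 target, had very few reads in these cells, 1 to 113 counts per library. It stood at 0.539, 0.644 and 0.108 CPM in untreated cells at 24 h and at 1.33, 1.16 and 1.56 with gefitinib 75 µM, a log2 change of 1.66 ± 0.40. An annotated readthrough transcript, CZ1P-ASNS, overlaps it and held 319 counts over all libraries against 1824 for ASNS, and since the counting rule is not given in the sources used here, the ASNS level is uncertain. Another 7 members overlap a counted gene, and the libraries do not mark strand: DDIT3, ATF5, CEBPB, MTHFD2, GPT2, PCK2 and VLDLR. For ATF5 the overlapping gene NUP62 held 96140 counts over all libraries against 23165 for ATF5, so the ATF5 level is uncertain too.

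Secreted products included the 2 largest rises with gefitinib 75 µM. ADM2, a peptide hormone of the adrenomedullin family, went from 3.63, 4.12 and 4.23 CPM to 68.6, 60.7 and 79.1, a 17.4-fold increase (log2 4.12 ± 0.16). INHBE, an activin subunit, had 1, 4 and 7 counts in the untreated libraries and 63, 61 and 73 with gefitinib 75 µM (log2 4.08 ± 0.38), so its size rests on few untreated reads. STC2, a secreted glycoprotein, went from 144, 152 and 150 to 637, 593 and 646 CPM (2.08 ± 0.11), and XPOT, which exports tRNA from the nucleus, changed by 0.52 ± 0.08. VLDLR, the receptor for very low density lipoprotein, had no call at either dose.

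No difference between the gefitinib doses was detectable. Between 75 and 50 µM edgeR called 0 of 33 members and 0.0317% of all genes, and DESeq2 also called 0 members. An unadjusted edgeR p under 0.05 was found for 1 of 33 members and 471 of 15789 genes. DDIT3 differed by 0.06 log2 units, with a 95% interval from -0.33 to 0.46.

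**Figure D1:**
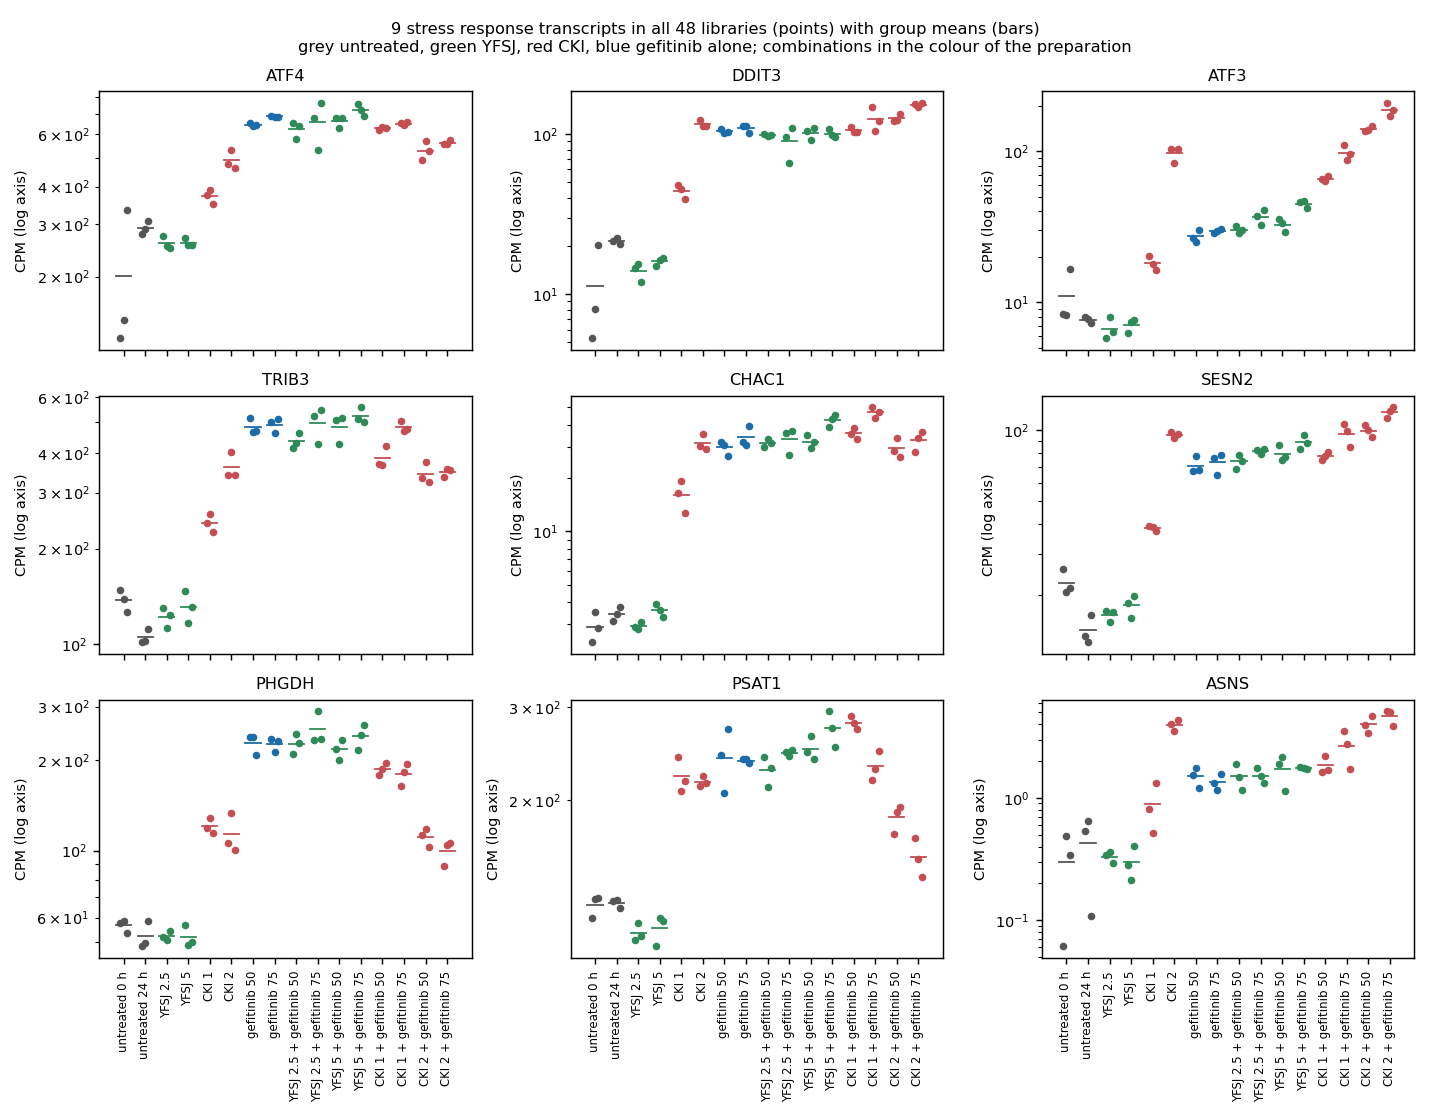
CPM (log axis) of 9 members in each of the 48 libraries (points), with group means (bars), by group. DDIT3 lies between 102 and 112 CPM with gefitinib 75 µM and between 20.4 and 22.3 in untreated cells at 24 h, and the YFSJ groups without gefitinib lie near or under the untreated group.

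CKI alone also raised most of the list. At 1 mg/mL 29 members were higher and 1 lower (13.2% and 14.7% of all genes), with a median of 0.85, and at 2 mg/mL again 29 were higher and 1 lower (24.1% and 27.1% of all genes), with a median of 1.21. With library totals the share of called genes that were higher was 64.5% in place of 47.2% at 1 mg/mL and 69% in place of 47.1% at 2 mg/mL, and the median of all genes at 2 mg/mL moved from -0.01 to 0.18. DDIT3 stood at 47.8, 45.1 and 39.1 CPM with 1 mg/mL and 122, 111 and 112 with 2 mg/mL, so that the higher dose reached the gefitinib level. ATF4 reached 375, 389 and 350 CPM at 1 mg/mL, a log2 change of 0.35 ± 0.17 without a call (adjusted p = 0.116), and 476, 532 and 460 at 2 mg/mL (0.75 ± 0.17).

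ATF3 led at 2 mg/mL. It stood at 20.3, 17.9 and 16.3 CPM with 1 mg/mL and 104, 83.1 and 104 CPM with 2 mg/mL, a 12.6-fold difference from untreated cells at the higher dose (log2 3.66 ± 0.16). ADM2 (3.41 ± 0.16), CHAC1 (3.21 ± 0.15), SESN2 (2.75 ± 0.10), DDIT3 (2.43 ± 0.21), PPP1R15A (2.40 ± 0.14) and GADD45A (1.88 ± 0.21) were the next largest among members with a mean of at least 5 CPM. ASNS reached 4.02, 3.54 and 4.35 CPM, above every gefitinib-only library, and changed by 3.21 ± 0.34. At 1 mg/mL the leading members by the same limit were ADM2 (2.30 ± 0.16), CHAC1 (2.23 ± 0.16) and PCK2 (1.47 ± 0.11). ATF5 was the lower member at both doses (-0.24 ± 0.08 each), a call lost in 8 of 13 alternatives at 1 mg/mL and 6 of 13 at 2 mg/mL.

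The higher CKI dose gave further rises in 4 of the 5 roles. From 1 to 2 mg/mL 17 members rose further and 1 fell, where 15.1% and 17.6% of all genes were called, and the median was 0.43 over the members and -0.01 over all genes. Of the called genes 46.3% were higher with TMM scaling and 69.9% with library totals, a scaling that moved the median of all genes from -0.01 to 0.11. The rises covered 6 of 9 factors, 6 of 7 feedback genes, 3 of 6 other enzymes (ASNS, CTH and GPT2) and 2 of 5 of the secreted and export group (ADM2 and STC2). ATF3 (2.41 ± 0.14), PPP1R15A (1.39 ± 0.14) and DDIT3 (1.39 ± 0.20) led among members with a mean of at least 5 CPM, ASNS rose by 2.14 ± 0.29 at its low level, and EIF4EBP1 fell by 0.29. None of the 6 serine and one-carbon enzymes was called, and their 95% intervals lay between -0.35 and 0.27. PHGDH stood at 118, 128 and 115 CPM with 1 mg/mL and at 106, 133 and 100 with 2 mg/mL, a difference of -0.09 with a 95% interval from -0.29 to 0.12. PSAT1 stood at 241, 208 and 217 and then 213, 222 and 215 CPM, and its interval ran from -0.20 to 0.13. Both genes thus overlapped between doses while ATF3 did not.

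Gefitinib and CKI were compared directly at their higher doses, where DDIT3 differed by -0.08 ± 0.19. Gefitinib 75 µM gave higher levels than CKI 2 mg/mL for 18 members and lower levels for 6, where 27.2% and 27.1% of all genes were called. Of the called genes 50.1% were higher with TMM scaling and 39.9% with library totals. NUPR1 differed most upward, at 258, 231 and 237 CPM with gefitinib against 67.2, 73.5 and 67.4 with CKI (1.80 ± 0.15), followed by JDP2 (1.20 ± 0.11) and PHGDH (1.00 ± 0.10). ATF3 (-1.71 ± 0.14), PPP1R15A (-1.04 ± 0.14) and GADD45A (-0.93 ± 0.20) were lower with gefitinib, as were ASNS, SESN2 and ALDH18A1. None of the serine and one-carbon enzymes was lower with gefitinib, and 4 of 6 were higher.

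**Figure D2:**
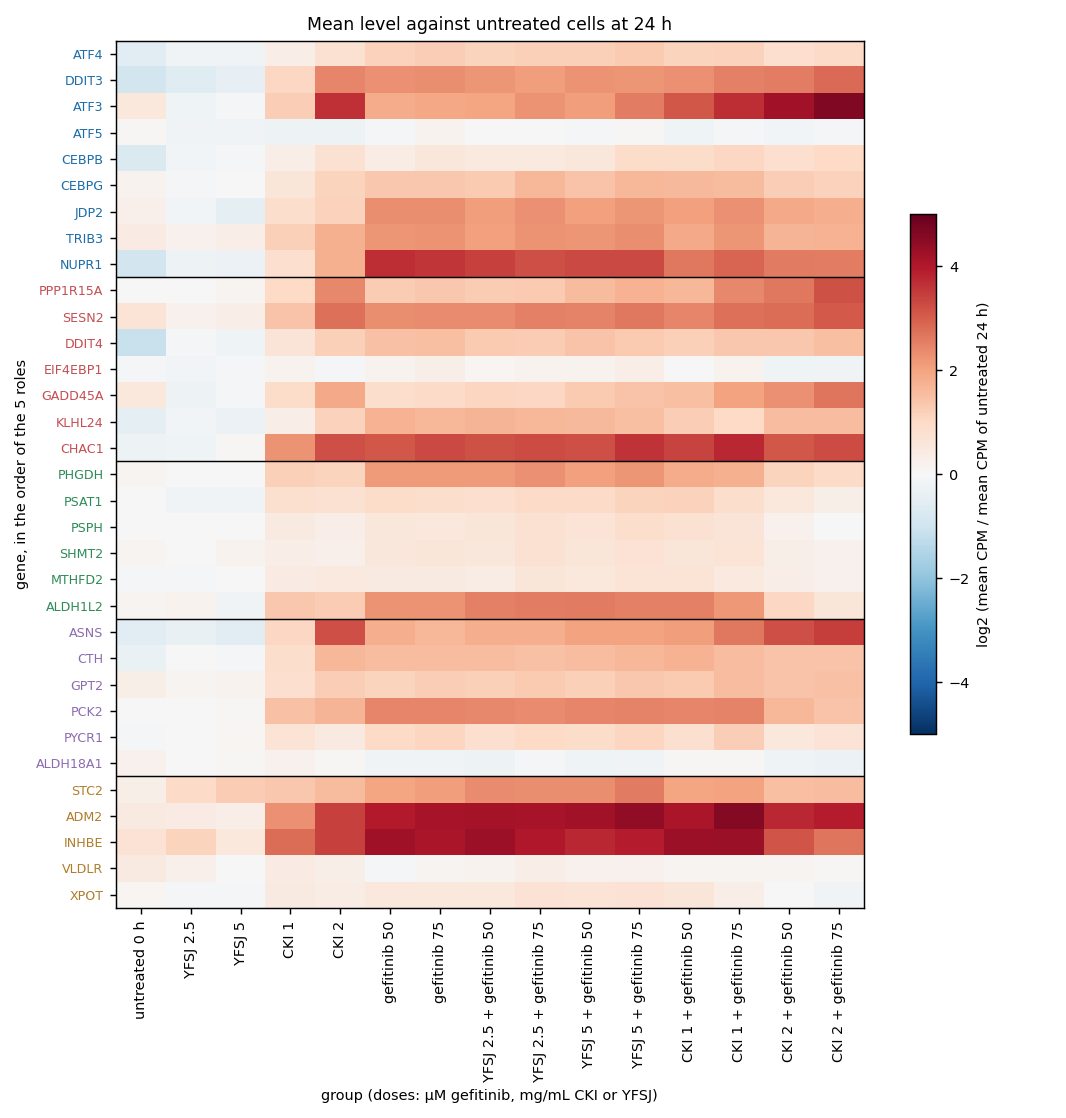
Mean CPM of each of the 33 members in each group relative to untreated cells at 24 h, as log2, with genes in the order of their roles. Gefitinib and CKI columns are high for most rows, the 2 YFSJ-only columns are pale except for STC2 and the low-count INHBE, and the row of ALDH18A1 stays near 0 throughout.

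Few members were called with YFSJ alone. At 2.5 mg/mL 1 member was called higher and 0 lower, where 2.01% and 0.918% of all genes were called, and at 5 mg/mL 3 were higher and 1 lower, against 4.28% and 2.2%. The median was -0.05 and -0.03. STC2 was the exception at both doses, at 298, 292 and 270 CPM with 2.5 mg/mL and 383, 350 and 348 with 5 mg/mL, against 144, 152 and 150 untreated. These groups did not overlap, and the log2 changes were 0.95 ± 0.10 and 1.28 ± 0.10. The STC2 call at 5 mg/mL held in all 13 alternatives run. TRIB3 (0.32 ± 0.10), SESN2 (0.35 ± 0.11) and JDP2 (-0.48 ± 0.13) were also called at 5 mg/mL, and each lost its call in 4 to 7 of 13 alternatives. The 3 libraries at 2.5 mg/mL belong to the liver transcript set, while none at 5 mg/mL does.

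DDIT3 stood at 14.6, 15.4 and 11.8 CPM with YFSJ 2.5 mg/mL, under the untreated libraries, with a log2 difference of -0.62 ± 0.22 that missed the threshold (adjusted p = 0.113). At 5 mg/mL it stood at 14.9, 16.3 and 16.7 CPM. Between the 2 YFSJ doses edgeR and DESeq2 each called 0 members, where edgeR called 0.374% of all genes. An unadjusted edgeR p under 0.05 was found for 3 of 33 members and 550 of 15789 genes. Only 59 genes of the whole table were called there by edgeR.

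Untreated culture itself moved some members. Between 0 and 24 h 6 members rose and 7 fell, where 10.8% and 14.4% of all genes were called, and of the called genes 42.9% were higher with TMM scaling and 62% with library totals. DDIT4, 59.9, 67.5 and 59.0 CPM at 0 h and 136, 126 and 137 at 24 h, rose by 1.10 ± 0.10, and SESN2 fell by 0.67 from 25.7, 20.7 and 21.4 to 13.4, 12.6 and 16.6. The libraries at 0 h disagreed with each other for the leading factors: DDIT3 stood at 5.30, 8.10 and 20.4 CPM and ATF4 at 125, 143 and 334. In both genes libraries 1 and 2 were below the 24 h libraries and library 3 was close to or above them. Without libraries 1 and 2 the number of called members fell from 13 to 5 and that of all called genes from 3980 to 145. The 0 h group is then 1 library, assumed to vary like the other groups, and the sign of the ATF4 difference turned, from 0.54 to -0.21 (adjusted p = 0.618).

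Adding 2 mg/mL CKI to gefitinib moved members in both directions: ATF3, PPP1R15A and GADD45A rose while the serine and one-carbon enzymes fell. With gefitinib 75 µM 7 members rose and 17 fell against gefitinib alone, where 28.8% and 29.4% of all genes were called, and the median was -0.25 over the members and -0.01 over all genes. With gefitinib 50 µM 7 rose and 14 fell (26.6% and 27.1% of all genes), with a median of -0.18. At both gefitinib doses the number of rises was under the share of all genes, and the number of falls was above it. At 50 µM 49.6% of the called genes were higher with TMM scaling and 60.1% with library totals, a scaling that moved the median of all genes from -0.01 to 0.09.

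Among members with a mean of at least 5 CPM, ATF3, PPP1R15A and GADD45A rose most at 75 µM. ATF3 went from 28.7, 29.5 and 30.8 CPM to 209, 171 and 187, a 6.36-fold rise (log2 2.67 ± 0.14, adjusted p = 9.19e-20). PPP1R15A went from 255, 222 and 251 to 856, 840 and 885 CPM (1.83 ± 0.14). GADD45A went from 122, 122 and 131 to 420, 400 and 404 CPM (1.71 ± 0.21). In each gene all combination libraries were above all gefitinib libraries. ASNS, with 5.09, 5.08 and 3.85 CPM in the combination, rose by 1.79 ± 0.28, SESN2 by 0.71 ± 0.09 and CEBPB by 0.42 ± 0.12. DDIT3 was at 153, 147 and 156 CPM, a rise of 0.49 ± 0.19 (adjusted p = 0.0305) whose call was lost in 8 of 14 alternatives, among them the one with a term for the liver transcript libraries. ATF4 stood lower in every combination library, at 554, 554 and 571 CPM against 688, 686 and 686, a difference of -0.30 ± 0.17 that was not called (adjusted p = 0.127).

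All 6 serine and one-carbon enzymes fell at 75 µM, and 5 of 6 at 50 µM. ALDH1L2 went from 25.0, 29.8 and 24.7 CPM to 8.78, 9.81 and 6.76 (-1.65 ± 0.14). PHGDH went from 234, 212 and 231 to 89.0, 104 and 106 CPM (-1.18 ± 0.10). PSAT1 went from 239, 239 and 234 to 169, 155 and 143 CPM (-0.61 ± 0.08). None of these groups overlapped. PSPH (-0.52 ± 0.08), SHMT2 (-0.40 ± 0.08) and MTHFD2 (-0.25 ± 0.09) fell less, and the call of MTHFD2 was lost in 5 of 14 alternatives. PCK2 went from 127, 120 and 139 to 53.4, 69.0 and 64.9 CPM (-1.04 ± 0.11), with no overlap. The regulators NUPR1 (-1.03 ± 0.15), JDP2 (-0.53 ± 0.11) and TRIB3 (-0.49 ± 0.09), the secreted INHBE (-1.40 ± 0.26) and STC2 (-0.55 ± 0.10), and XPOT (-0.69 ± 0.08) fell too. CHAC1, at 27.9, 33.6 and 36.5 CPM, overlapped the gefitinib libraries and differed by -0.06 ± 0.12.

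All 3 combination libraries at 75 µM belong to the liver transcript set, so they could not be left out. With a term for that set, estimated from groups that hold both kinds of library, PHGDH was at -1.21, ALDH1L2 at -1.68, PSAT1 at -0.64, ATF3 at 2.78 and PCK2 at -1.10, all called, and MTHFD2 at -0.27 lost its call (adjusted p = 0.0933). At 50 µM only 1 combination library lies outside the set. With that library alone PHGDH stood at -0.94, ALDH1L2 at -1.26 and ATF3 at 2.33. The RNR2 share was also higher in the combination at 75 µM (1.39 to 1.56%) than with gefitinib alone (0.674 to 0.886%), and its part in these results was not tested.

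**Figure D3:**
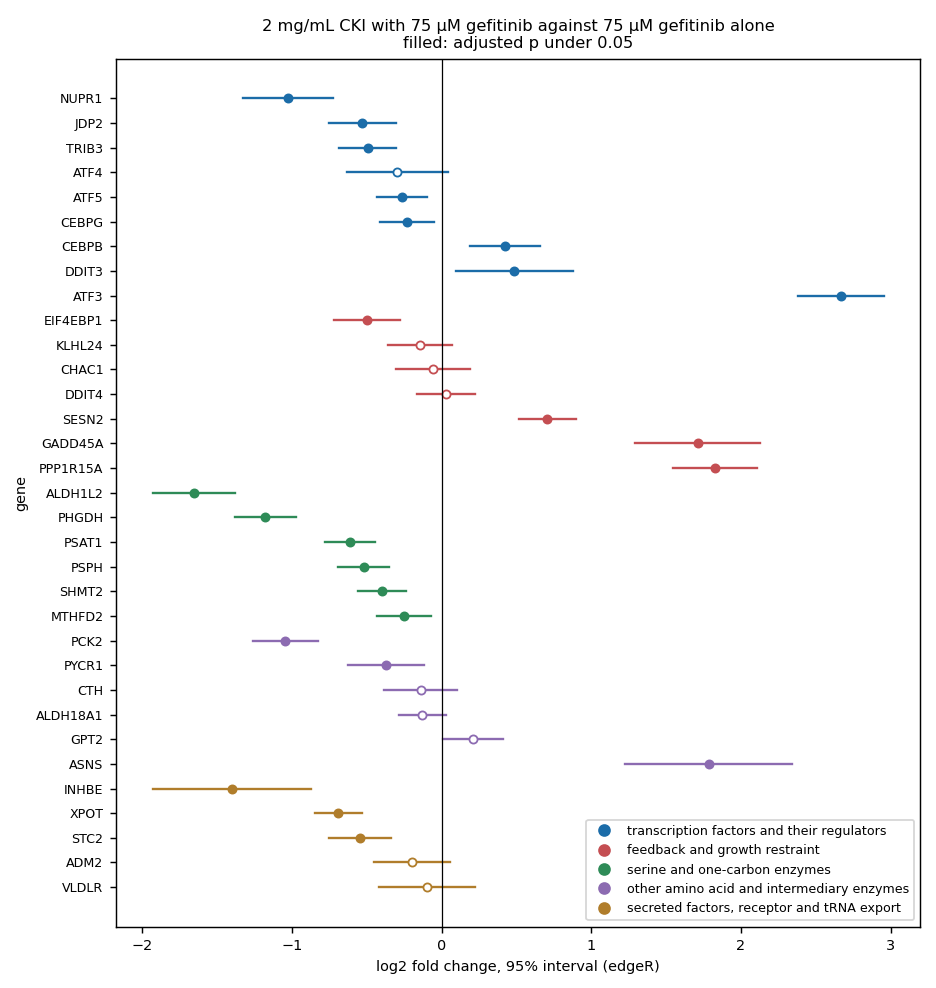
log2 fold change with its 95% interval (edgeR) for each of the 33 members when 2 mg/mL CKI was added to 75 µM gefitinib, coloured by role. ATF3 lies furthest to the right at 2.67, ALDH1L2 furthest to the left at -1.65, and every serine and one-carbon enzyme lies left of 0.

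With 1 mg/mL CKI fewer members fell than with 2 mg/mL, as did fewer of all genes. Added to 75 µM gefitinib it raised 11 members and lowered 4 (17.3% and 17.3% of all genes), and added to 50 µM it raised 8 and lowered 5 (15.5% and 16.2%). The falls were near or under the share of all genes at both gefitinib doses, so their number is not a result about the list. With library totals 66.9% rather than 49.9% of the called genes were higher at 75 µM and 71% rather than 48.9% at 50 µM, where the median of all genes was 0.13 on that scale. ATF3 rose in both, by 1.72 ± 0.14 at 75 µM, where it stood at 110, 88.0 and 96.1 CPM, and by 1.26 ± 0.14 at 50 µM. PPP1R15A (1.04 ± 0.14) and GADD45A (1.04 ± 0.20) rose at 75 µM. PHGDH was the only serine and one-carbon enzyme called there, at 164, 182 and 193 CPM and -0.33 ± 0.10. KLHL24 (-0.69 ± 0.11), NUPR1 (-0.66 ± 0.15) and ATF5 (-0.28 ± 0.08) also fell. Library 1 of CKI 1 mg/mL with gefitinib 75 µM is the one of that group outside the liver transcript set. Leaving it out lowered the 15 called members to 8 and all called genes from 5456 to 4134. At 50 µM leaving out a library gave 6 to 16 called members in place of 13. There were 8 without library 1 and 7 without library 3 of the combination, and 7 without library 1 and 6 without library 2 of gefitinib 50 µM. All called genes then ran from 3601 to 5164 in place of 5015.

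The reverse addition, gefitinib 75 µM to CKI 2 mg/mL, raised 9 members and lowered 8, where 15.6% and 14.6% of all genes were called. Of the called genes 51.7% were higher with TMM scaling and 40.6% with library totals. ATF3 (0.96 ± 0.13), PPP1R15A (0.79 ± 0.13) and GADD45A (0.78 ± 0.20) led the rises, while ALDH1L2 (-0.65 ± 0.14), XPOT (-0.55 ± 0.08) and PSAT1 (-0.48 ± 0.08) led the falls, both among members with a mean of at least 5 CPM. With the term for the liver transcript libraries 10 members were called in place of 17, while all called genes fell from 4760 to 2769. XPOT stood at 138, 133 and 128 CPM with both agents, under the untreated 155, 150 and 144.

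**Figure D4:**
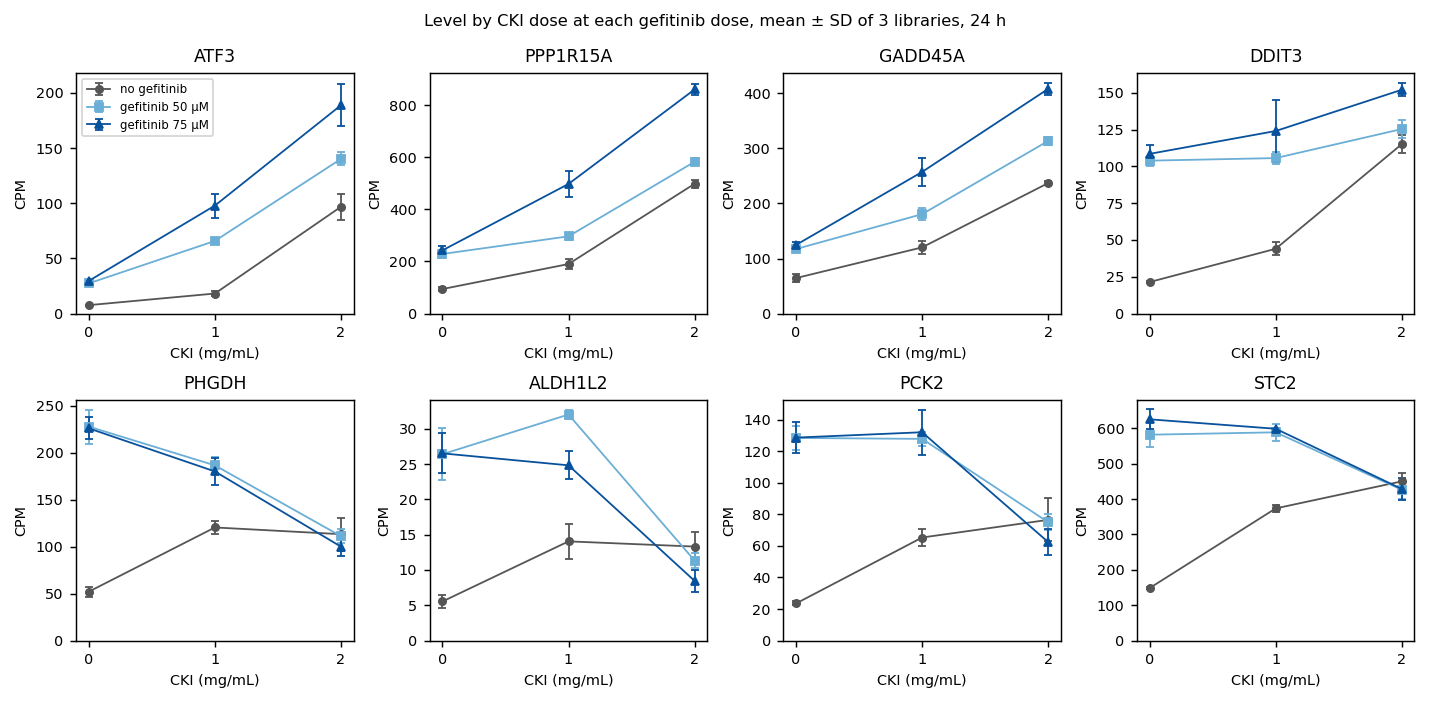
Mean CPM ± SD of 3 libraries against CKI dose (mg/mL) for 8 members, with 1 line for each gefitinib dose. ATF3, PPP1R15A and GADD45A climb along all lines, while PHGDH, ALDH1L2 and PCK2 are higher with CKI than without it when gefitinib is absent and lower at 2 mg/mL when gefitinib is present.

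Both agents together gave less than the product of their separate folds for most members. The interaction, the change with both minus the change with each, averaged over the 4 dose pairs, was below 0 for 28 of 33 members and above 0 for 0 by edgeR, where 19.5% and 20% of all genes were called lower and higher. DESeq2 likewise called 28 lower and 0 higher. The median was -0.98 over the members and 0.00 over all genes. Among members with a mean of at least 5 CPM the largest were ADM2 (-2.80 ± 0.17), CHAC1 (-2.55 ± 0.16) and NUPR1 (-2.28 ± 0.17). DDIT3 was at -1.49 ± 0.22 (adjusted p = 9.64e-07) and ATF4 at -0.73 ± 0.18 (adjusted p = 0.00112).

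DDIT3 shows the size of the interaction: 115 CPM with CKI 2 mg/mL and 108 with gefitinib 75 µM, both from 21.4 untreated, would multiply to 583 CPM, and 152 was observed, or 26.1% of that level. Over the 33 members the observed level was a median 41.2% of the product in that pair, and all 33 were under it. The median was 40.5% with 2 mg/mL and 50 µM, 62.1% with 1 mg/mL and 50 µM and 65.2% with 1 mg/mL and 75 µM. In the pair of the 2 higher doses 9 members stood above both agents alone, among them ATF3, PPP1R15A, GADD45A, SESN2 and DDIT3. Levels against the product or against both single agents were not worked out over all genes. These counts therefore have no share of all genes beside them and do not set the list apart. Members with no called interaction were CEBPB (95% interval -0.30 to 0.20), GADD45A (-0.63 to 0.25), ATF5 (-0.12 to 0.23), ALDH18A1 (-0.22 to 0.11) and VLDLR (-0.62 to 0.06). ATF3 at -0.45 ± 0.16 and ASNS at -1.01 ± 0.40 lost their calls in 5 and 11 of 35 alternatives.

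**Figure D5:**
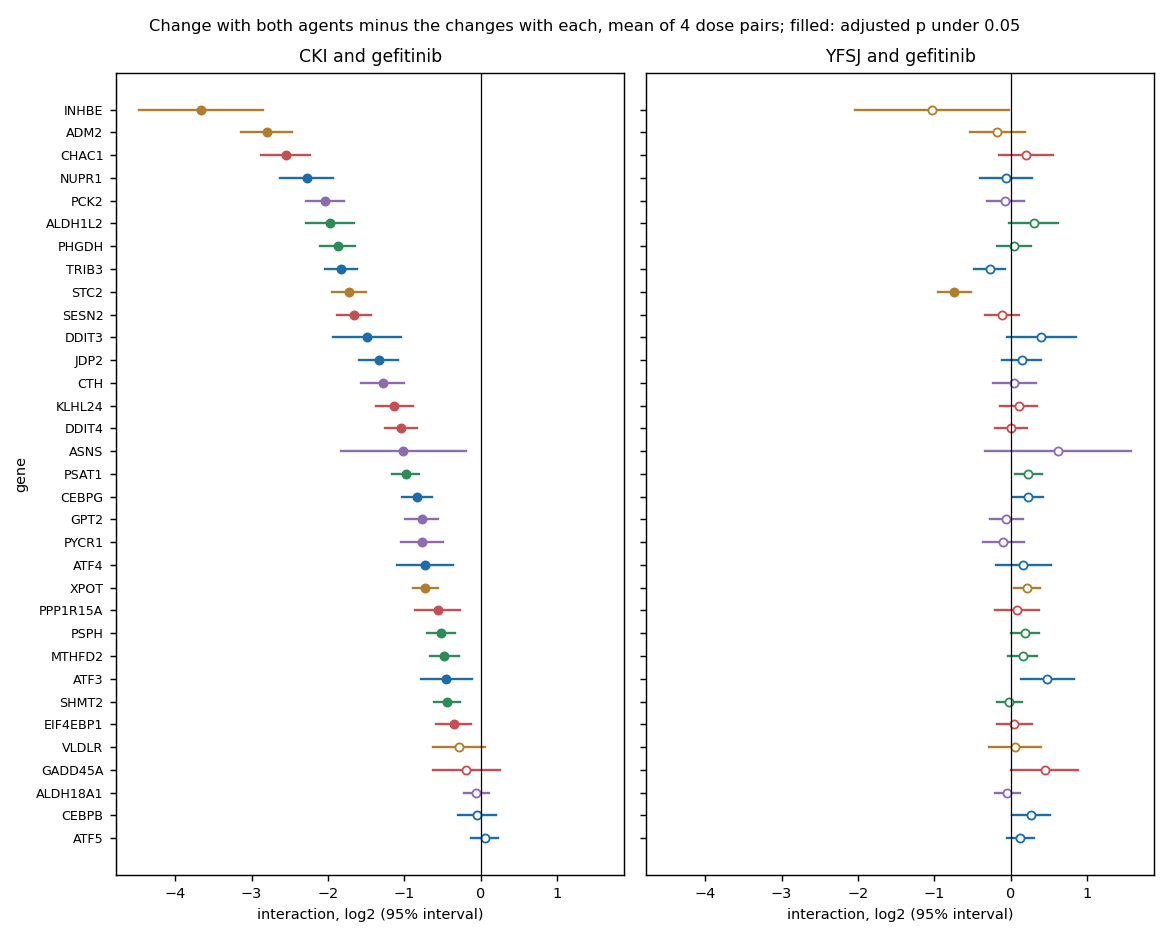
Interaction on the log2 scale with its 95% interval for each member, CKI with gefitinib beside YFSJ with gefitinib, mean of 4 dose pairs. In the CKI panel 28 members lie below 0 with a call, and in the YFSJ panel STC2 alone is called, at -0.74.

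Few members were called when YFSJ was added to gefitinib. Added to gefitinib 50 µM, edgeR called 0 members at 2.5 mg/mL (0.0887% of all genes called) and 0 at 5 mg/mL (0.937% of all genes). Added to 75 µM it called 0 at 2.5 mg/mL (1.83% of all genes). In the same order, an unadjusted edgeR p under 0.05 was found for 2, 7 and 8 of 33 members. It was found for 1037, 1823 and 3410 of 15789 genes. DESeq2 called 1 member in each of these 3 comparisons. Library 2 of YFSJ 2.5 mg/mL with gefitinib 75 µM stood apart, with DDIT3 at 66.2 CPM against 95.6 and 109 in libraries 1 and 3. PPP1R15A was at 153 CPM in it, against 267 and 281. Leaving out a library there gave 0 to 1 called members and 29 to 1065 called genes, so the count of 0 is a weak limit. At 5 mg/mL with 75 µM 3 members were higher and 0 lower, where 1.79% and 1.67% of all genes were called: ATF3 (0.60 ± 0.14), STC2 (0.53 ± 0.10) and PSPH (0.32 ± 0.08). More had an unadjusted edgeR p under 0.05 there, 14 of 33 members and 2465 of 15789 genes. The median was 0.11 over the members and 0.00 over all genes. STC2 stood at 823, 871 and 1006 CPM, above every library of gefitinib alone, and ATF3 at 45.8, 46.6 and 42.4, also with no overlap. DDIT3, at 107, 97.9 and 95.3 CPM, overlapped gefitinib alone and differed by -0.11, with a 95% interval from -0.51 to 0.28.

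Gefitinib 75 µM added to YFSJ 5 mg/mL raised 31 members and lowered 1 (25.9% and 25.4% of all genes), led by ADM2 (4.11 ± 0.15), NUPR1 (3.56 ± 0.17) and CHAC1 (3.56 ± 0.15). Of the called genes 50.5% were higher with TMM scaling and 62.3% with library totals, which moved the median of all genes to 0.14. The YFSJ interaction was called for 1 member and 1.7% of all genes. That member was STC2 (-0.74 ± 0.11, adjusted p = 3.81e-05), whose YFSJ change at 5 mg/mL was 1.28 without gefitinib and 0.53 beside 75 µM. The observed levels with YFSJ and gefitinib were a median 101 to 109% of the product of the separate folds.

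Across the 16 group means most members ran with ATF4, and some ran closer to ASNS. Pearson's r with ATF4 was 0.98 for NUPR1, 0.97 for DDIT4 and 0.96 for CTH, and with ASNS it was 0.98 for PPP1R15A, 0.98 for ATF3 and 0.96 for GADD45A. PHGDH had 0.92 with ATF4 and 0.47 with ASNS. ALDH18A1 was at -0.67 with ATF4, and ATF5 (0.15) and VLDLR (-0.27) were near 0. With DDIT3, r was 0.97 for DDIT4 and 0.98 for CTH, so these 2 genes ran with DDIT3 at least as closely as with ATF4. ASNS held only 1 to 113 counts per library and its level is uncertain, which limits the values set against it. These values describe 16 points that share scaling and treatments. The highest group mean was that of CKI 2 mg/mL with gefitinib 75 µM for 7 members, CKI 1 mg/mL with gefitinib 75 µM for 7 and YFSJ 5 mg/mL with gefitinib 75 µM for 7. Highest groups were not worked out over all genes, so these counts do not set the list apart.

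Genes around the pathway were read from 6 lists of 114 genes, 111 of them tested. The counts of these lists stand beside the shares of all tested genes, which were 27.6% higher and 27.1% lower with gefitinib 75 µM and 24.1% higher and 27.1% lower with CKI 2 mg/mL; shares of a list near these are not a result about it. Of 18 genes for eIF2 kinases, eIF2 and eIF2B, 4 rose and 5 fell with gefitinib 75 µM, and 3 rose and 4 fell with CKI 2 mg/mL, near or under the shares of all genes. EIF2AK3, the kinase PERK that senses stress in the endoplasmic reticulum, rose with both (1.03 ± 0.14 and 1.41 ± 0.14), and rose again by 0.83 ± 0.13 when CKI 2 mg/mL was added to gefitinib 75 µM. EIF2S1, the eIF2 subunit these kinases phosphorylate, fell by 1.07 with gefitinib. PPP1R15B, the constitutive relative of PPP1R15A, had no call with gefitinib and rose by 0.53 ± 0.11 with CKI.

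In the IRE1, XBP1 and ATF6 branches, the other arms of the unfolded protein response, 9 of 23 genes rose and 7 fell with gefitinib 75 µM, where the falls were near the share of all genes, and 12 rose and 4 fell with CKI 2 mg/mL. When CKI 2 mg/mL was added to gefitinib 75 µM, 18 of 23 rose and 4 fell, with a median of 0.54, against 28.8% and 29.4% of all genes. DNAJB9, a chaperone induced by XBP1, rose by 2.10 ± 0.16 there and by 2.33 ± 0.17 with CKI alone. HERPUD1 and XBP1 rose with gefitinib (1.02 ± 0.12 and 0.74 ± 0.09) and with CKI (1.51 ± 0.12 and 1.26 ± 0.09), whereas the chaperone CALR fell by 0.55 with gefitinib. Of 12 genes tied to death and outcome, 4 rose and 0 fell with gefitinib, the rises near the share of all genes, and 6 rose and 1 fell with CKI. BBC3, which encodes the BH3 protein PUMA, rose by 2.92 ± 0.22 and 1.73 ± 0.22, and the death receptor gene TNFRSF10B by 0.84 ± 0.10 and 1.08 ± 0.10.

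Of 20 isozymes and neighbours of the enzymes, 5 rose and 11 fell with gefitinib 75 µM, against 27.6% and 27.1% of all genes, so that the rises were near the share of all genes. With CKI 2 mg/mL 2 rose and 10 fell, against 24.1% and 27.1%. MTHFD1, the cytosolic folate enzyme, fell by 1.03 with gefitinib while MTHFD2 rose by 0.45. SHMT1, the cytosolic form of SHMT2, fell by 0.27 with gefitinib and by 0.78 with CKI. CHAC2, the constitutive relative of CHAC1, fell by 1.63 with gefitinib. ALDH1L1, the cytosolic form of ALDH1L2, rose by 1.98 ± 0.27 with gefitinib. PCK1, the cytosolic form of PCK2, was called higher in the combination, where all libraries belong to the liver transcript set. Among 26 partners and relatives of the factors 12 rose and 4 fell with gefitinib, and 15 rose and 3 fell with CKI, beside the same shares of all genes. Of 13 tested paralogs of the regulators 4 rose and 2 fell with gefitinib, the rises near the share of all genes, and 6 rose and 4 fell with CKI.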

How the data were processed

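The authors deposited raw counts per gene symbol for 48 libraries, unstranded and paired-end per the labels. The submitters' processing notes list hg19 as the build, with edgeR, STAR 2.5.3a and Trim Galore 0.4.2; the counting tool and annotation are not given in the sources used here. Totals were 16428398 to 26264162. No replicate pair was identical (chi-square per gene 3.84 to 72.6).

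Analysis used edgeR 4.0.16 (R 4.3.3): filterByExpr (minimum count 10, minimum total 15), TMM factors, and robust quasi-likelihood fits with 16 group means and 32 residual degrees of freedom over 15789 genes (common biological coefficient of variation 0.102). Each of 23 contrasts was tested two-sided, with Benjamini-Hochberg adjustment across the whole tested table. The scripts were tested on simulated data. All 33 members could be named; the text leads with up to 3 rises and 3 falls among called members with at least 5 CPM in the higher group. Related lists are given by counts and up to 3 called genes in each direction, plus isozymes and partners of members; related symbols were matched through RefSeq synonyms. The members, lists and some alternatives were chosen with earlier results of these data known. Alternatives were other scalings, DESeq2 1.42.0, no count filter, adjusted p under 0.01, a fit of the compared groups alone, a replicate block, a liver transcript term and leaving out libraries. No sample was left out of the main fits.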

Additional observations from a re-analysis of the deposited data

Results flagged for a closer look

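The response of 28 members to CKI differed with gefitinib present or absent, by the interaction term of the edgeR fit over all genes (adjusted p under 0.05). On the log2 scale the factors and regulators were at -0.73 for ATF4, -1.49 for DDIT3, -0.45 for ATF3, -0.83 for CEBPG, -1.33 for JDP2, -1.83 for TRIB3 and -2.28 for NUPR1. The feedback genes were at -0.56 for PPP1R15A, -1.66 for SESN2, -1.05 for DDIT4, -0.35 for EIF4EBP1, -1.13 for KLHL24 and -2.55 for CHAC1. The serine and one-carbon enzymes were at -1.87 for PHGDH, -0.98 for PSAT1, -0.52 for PSPH, -0.44 for SHMT2, -0.48 for MTHFD2 and -1.97 for ALDH1L2. Other enzymes were at -1.01 for ASNS, -1.28 for CTH, -0.77 for GPT2, -2.04 for PCK2 and -0.77 for PYCR1. The rest were at -1.73 for STC2, -2.80 for ADM2, -3.66 for INHBE and -0.72 for XPOT. For YFSJ the interaction was called for STC2, at -0.74. Liver transcripts were present in 7 of the 12 libraries that combine CKI with gefitinib, and with a term for them 25 members kept a negative call in the CKI interaction; those lost were ASNS, ATF3 and EIF4EBP1.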

How the results depend on the processing

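The counts of called members in the comparisons of gefitinib or CKI alone with untreated cells, of CKI 2 mg/mL added to gefitinib, and of the CKI interaction stayed within 1.5 times under every alternative run, except where stated here; leaving out a library gave 28 to 30 for gefitinib 50 µM, 29 to 31 for 75 µM, 26 to 28 for CKI 1 mg/mL, 29 to 30 for CKI 2 mg/mL, 21 to 24 for CKI 2 mg/mL added to gefitinib 75 µM and 27 to 28 for the interaction. Without the liver transcript libraries the combination of CKI 2 mg/mL and gefitinib 50 µM kept 1 library. Its median against gefitinib alone was then -0.17 over the members in place of -0.18. At adjusted p under 0.01 the count was 5 for CKI 1 mg/mL added to gefitinib 50 µM, 7 for 24 against 0 h and 1 for YFSJ 5 mg/mL. With library totals 24 against 0 h had 8 calls, with only the libraries compared 2, and without libraries 1 and 2 at 0 h 5. A fit of only the libraries compared also called 2 members for YFSJ 2.5 mg/mL, 8 for YFSJ 5 mg/mL added to gefitinib 75 µM and 2 for the YFSJ interaction. DESeq2 called 1 in each of the other 3 additions of YFSJ to gefitinib. With the liver transcript term 10 members were called for gefitinib 75 µM added to CKI 2 mg/mL, and 2769 of all genes in place of 4760. Leaving out a library gave 6 to 16 calls for CKI 1 mg/mL added to gefitinib 50 µM, 8 to 15 for CKI 1 mg/mL added to 75 µM, 8 to 12 for 24 against 0 h, 0 to 1 for YFSJ 2.5 mg/mL added to gefitinib 75 µM, 0 to 3 for YFSJ 5 mg/mL added to 50 µM and 1 to 4 for YFSJ 5 mg/mL alone. In the same order, all called genes ran from 3601 to 5164, 4134 to 4909, 1065 to 6016, 29 to 1065, 8 to 682 and 406 to 897. The cause was not tested. For 24 against 0 h without libraries 1 and 2 at 0 h, ATF4 turned to -0.21 and ALDH18A1 to 0.028. Over all members, comparisons and alternatives 11208 gene results kept their side of the threshold, 319 lost it, 78 gained it and 2 reversed.

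With the replicate number as a block, the counts of called members were the same as without it in all 23 comparisons (28 in the CKI interaction, 24 for CKI 2 mg/mL added to gefitinib 75 µM, 31 for gefitinib 75 µM), and no member gained or lost a call. Samples with the same number share only a number: over 360 same-number pairs the mean correlation of deviations was -0.01, and 9 of 48 libraries correlated best with their own number. Depth limits ASNS and INHBE most, which had as few as 1 count in a library.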

Other observations

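With gefitinib 75 µM the factor partners MAF and FOSL1 moved further than most members. MAF, a basic leucine zipper factor, was 3.89 ± 0.22 log2 units higher than in untreated cells. FOSL1, a Jun partner induced by ERK signalling, was at -2.21 ± 0.16. With CKI 2 mg/mL MAF was 1.15 higher, where the median of the members was 1.21. NFIL3 rose with CKI 2 mg/mL (1.41 ± 0.10) and again when CKI 2 mg/mL was added to gefitinib 75 µM (1.31 ± 0.10). Among paralogs of the regulators GADD45G rose by 3.42 ± 0.27 with CKI 2 mg/mL and by 4.79 ± 0.26 when it was added to gefitinib 75 µM, where GADD45A rose by 1.71.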
